A study of Mus musculus with 56 samples.

Results

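Skipped exons of 28 to 300 bases whose length is a multiple of 3 were examined in 11 skipped exon tables from mouse tissues and N2a cells, a mouse neuroblastoma line. Such exons can be left out of a messenger RNA without shifting its reading frame. An event was a skipped exon together with its flanking exons, and it was kept where the junction reads of its inclusion and skipping forms averaged 20 or more per replicate in both replicate sets of the table. The rule left 108389 of 344365 events with that depth. These events covered 24543 different exons of 9313 genes. Exons of the same length range that shift the frame made up 166091 events and served as the comparison.

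The series held 56 samples in 19 groups. The tissue samples came from mice labelled WT (wild type) or Fmr1 KO (knockout), 3 of each genotype for 3 brain regions (cerebellum, cortex and hippocampus) and for liver, muscle and testis, with no age or strain in the labels. A first N2a experiment compared siFmr1, a small interfering RNA (siRNA) directed at Fmr1 (3 samples), with siNT, a siRNA that targets no gene (2 samples). In the co-transfection experiment, N2a cells received siRNA and plasmid together, with 3 samples per group: siNT and the control plasmid pcDNA, siFmr1 and pcDNA, siMbnl1 and pcDNA, siFmr1 and FLAG-tagged nuclear MBNL1, or siMbnl1 and FLAG-tagged cytosolic MBNL1. The 4 skipped exon tables of that experiment are called here the siFmr1 pcDNA, siMbnl1 pcDNA, nuclear MBNL1 and cytosolic MBNL1 tables, after the samples for which the labels list them. Each splicing table compares set 1 with set 2, and the headers do not tie a set to a genotype or treatment. The differences below are therefore between sets and are given without a knockout or knockdown direction. In the first N2a experiment, set 1 has 3 replicates and set 2 has 2, which are the numbers of siFmr1 and siNT samples. Read totals per replicate could help to place the tissue sets and were not used for this. The labels do not say whether replicates came from separate animals or cultures, so the p-values measure the spread between these samples only.

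FMRP, the product of Fmr1, is an RNA-binding protein that represses translation and whose loss causes fragile X syndrome. MBNL1 is an RNA-binding protein that promotes inclusion of some exons and skipping of others, and it recognises short motifs of a GC pair between pyrimidines. Frame-preserving cassette exons often add or remove a short stretch of protein, and many of those that differ between brain, muscle and other tissues lie in cytoskeletal, membrane-trafficking and kinase genes.

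The labelled Fmr1 state was checked in the gene tables. Fmr1 was at 27.8 to 34.1 CPM (counts scaled to the library total) in the 3 cortex KO samples and 118.0 to 126.0 CPM in the 3 cortex WT samples, and KO samples were lower without overlap in every tissue except muscle. In muscle, KO samples were at 8.63 to 11.2 CPM and WT samples at 10.9 to 16.8 CPM. In the co-transfection experiment, Fmr1 was at 583.0 to 612.0 normalized counts with siFmr1 and pcDNA against 2820.0 to 3600.0 with siNT and pcDNA. Defining markers were present in each labelled tissue (Alb 60400.0 to 88300.0 CPM in liver, Acta1 32900.0 to 38200.0 CPM in muscle). Gene tables held between 13230785 and 41384652 counts per sample. The skipped exon tables held 406597 to 854473 junction reads per replicate in brain, 7708536 to 12282115 in the peripheral tissues and the first N2a experiment, and 35906127 to 57090318 in the co-transfection tables.

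The sequences below are those of the exons that the results turn on. They are from GENCODE M21 transcripts on GRCm38, 5′ to 3′ on the transcribed strand, with positions counted from 1, and capitals mark the 4 tetramers searched on that strand, which are TGCT and CGCT together with the forms TGCC and CGCC that end in the other pyrimidine. The App exon (chr16:85043576-85043743, minus strand) encodes the Kunitz protease inhibitor domain of the amyloid precursor protein, and its inclusion separated brain from the other tissues.
App, 168 bases: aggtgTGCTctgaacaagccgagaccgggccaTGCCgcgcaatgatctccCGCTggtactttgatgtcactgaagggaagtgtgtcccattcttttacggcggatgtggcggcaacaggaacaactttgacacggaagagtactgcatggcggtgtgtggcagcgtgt
The Sptan1 exon (chr2:30001100-30001159, plus strand) lies in alpha II spectrin, a rod-shaped protein of the membrane skeleton, and differed both between tissues and between co-transfection sets.
Sptan1, 60 bases: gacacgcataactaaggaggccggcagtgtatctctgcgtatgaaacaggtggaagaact
The next exons belong to the related genes Epb41l3 (chr17:69273882-69273917, plus strand) and Epb41l1 (chr2:156511785-156511820, plus strand), members of the protein 4.1 family, which links spectrin and actin to the membrane.
Epb41l3, 36 bases: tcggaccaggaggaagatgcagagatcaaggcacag
Epb41l1, 36 bases: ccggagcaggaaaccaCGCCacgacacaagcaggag
The Map2 exon (chr1:66431527-66431619, plus strand) encodes an additional microtubule-binding repeat of MAP2, and differed between co-transfection sets.
Map2, 93 bases: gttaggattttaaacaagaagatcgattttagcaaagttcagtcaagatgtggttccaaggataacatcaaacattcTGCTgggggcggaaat
The Cttn exon (chr7:144450978-144451088, minus strand) encodes a repeat of the actin-binding region of cortactin.
Cttn, 111 bases: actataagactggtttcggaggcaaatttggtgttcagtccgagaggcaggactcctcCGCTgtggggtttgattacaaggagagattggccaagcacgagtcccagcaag
The Mbnl1 exons (chr3:60614683-60614736 and chr3:60621423-60621458, plus strand) are alternative exons of MBNL1 itself, and the longer of them is known to promote a nuclear location of the protein.
Mbnl1, 54 bases: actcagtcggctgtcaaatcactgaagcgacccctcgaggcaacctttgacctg
Mbnl1, 36 bases: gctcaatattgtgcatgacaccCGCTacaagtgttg
The Neb exons (chr2:52151364-52151456 and chr2:52157832-52157924, minus strand) encode repeats of nebulin, a giant protein of the thin filament, and are shown because they moved in opposite directions between the muscle sets.
Neb, 93 bases, higher in set 1: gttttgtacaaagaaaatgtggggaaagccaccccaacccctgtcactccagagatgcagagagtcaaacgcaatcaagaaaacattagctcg
Neb, 93 bases, lower in set 1: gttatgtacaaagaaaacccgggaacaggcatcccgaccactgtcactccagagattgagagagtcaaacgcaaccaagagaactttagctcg

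Of the 24543 exons, 94.1% were wholly coding in the annotation, 3.31% partly coding and 1.49% had no coding base. Another 0.843% lay in genes that do not code for protein, and 0.261% matched no annotated exon. The median length was 117.0 bases. By length, 9013 exons had 30 to 99 bases, 13380 had 100 to 199 and 2150 had 200 to 300. In 59.2% of coding exons the exon began at a codon boundary, in 26.8% it began after the first base of a codon and in 14.1% after the second. Among all 24543, 7176 exons reached the read minimum in a single table and 348 in all 11.

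Inclusion was the length-corrected share of junction reads from the inclusion form, on a scale from 0 to 1. Most frame-preserving exons were nearly always included, with a median inclusion between 0.98 in cortex and 0.995 in the nuclear MBNL1 table. The share with a mean inclusion from 0.1 to 0.9 was 24.3% in cortex, 24.0% in hippocampus and 21.6% in cerebellum. It was 11.2% in liver, 15.5% in muscle, 12.1% in testis and 11.7% in the N2a siRNA table. In the 4 co-transfection tables it lay between 7.84% and 8.90%. Frame-shifting exons of the same lengths had lower shares in every table, 9.30% in cortex, 8.96% in hippocampus, 7.14% in cerebellum, 5.71% in liver, 7.99% in muscle, 8.14% in testis and 5.22% to 6.65% in the N2a tables. Computed in each sample alone, the ranges of the frame-preserving and frame-shifting shares did not overlap within a table. The cytosolic MBNL1 table was the exception, where the lowest sample of the frame-preserving exons (7.64%) lay under the highest of the frame-shifting ones (8.15%).

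**Figure D1:**
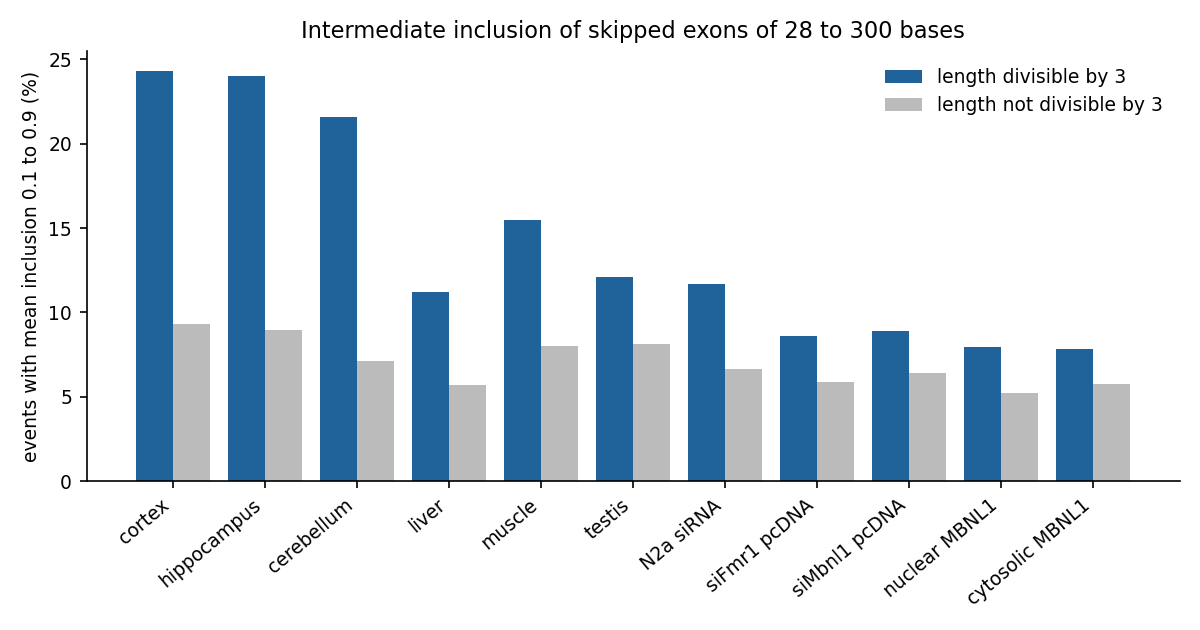
Share of events with a mean inclusion from 0.1 to 0.9 (percent, y axis) in each of the 11 skipped exon tables (x axis), for exons of 28 to 300 bases whose length is divisible by 3 (blue) or not (grey). The blue bar is higher in every table, and the distance is widest in the brain tables (24.3% against 9.30% in cortex).

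Brain tables had far fewer junction reads and another library kit than the rest, and the tables were made separately, so levels across tables are given without a test. With a minimum of 50 reads, the shares of frame-preserving exons from 0.1 to 0.9 were 19.1%, 19.6% and 17.9% in cortex, hippocampus and cerebellum and 6.76%, 11.4% and 9.9% in liver, muscle and testis. The median standard deviation (SD) between replicates of exons from 0.1 to 0.9 was between 0.0533 in the nuclear MBNL1 table and 0.0817 in liver. The median absolute difference between sets at such exons was of similar size, from 0.0391 in hippocampus to 0.0658 in the siFmr1 pcDNA table.

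The same event reached the read minimum in all 6 tissues for 348 frame-preserving exons of 303 genes. The difference between their highest and lowest tissue median was 0.231 at the median, against 0.0761 for 297 frame-shifting exons. It was 0.2 or more for 184 frame-preserving exons (52.9%, against 24.9%) and 0.5 or more for 89 exons of 82 genes (25.6%, against 7.07%). For all 89 of these, the samples of the highest tissue lay above those of the lowest without overlap. Conversely, 27.6% of the frame-preserving and 51.5% of the frame-shifting exons were above 0.9 in every tissue. With a minimum of 50 reads, 113 exons remained and 43 of them (38.1%) had a range of 0.2 or more. These levels were compared across tables whose read lengths and library kits differ between brain and the other tissues, so brain and library type cannot be told apart. In tissues, a different mix of cells and a different inclusion within a cell also cannot be told apart.

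The brain regions resembled each other. Cortex and hippocampus differed by 0.2 or more, with no overlap of samples, in 1 exon (0.287%), hippocampus and cerebellum in 8 and cortex and cerebellum in 9 (2.59%). A brain region and a peripheral tissue differed in 70 to 105 exons. Among the peripheral tissues, which had the same library preparation per the labels, liver and muscle differed in 76 exons (21.8%), liver and testis in 82 (23.6%) and muscle and testis in 105 (30.2%). In 21 exons every brain sample lay above every peripheral sample, and in 15 every brain sample lay below. Liver stood apart from each of the other tissues, by 0.2 or more and without overlap, in 3 exons above the rest (Tjp1, Mink1 and Map3k7) and 7 below (among them Ppp3ca, Exoc7 and Rapgef1). Muscle stood apart above in 2 exons (Mfn2 and Mpp6) and below in 7 (among them Immt, Mark2, Slmap and Nfix). Testis stood apart in 5 exons above (Aldoa, Slc25a25, Atf2, Rhot1 and Ybx3) and 5 below (Ehmt2, Mff, Nf2, Poldip3 and Csnk1d). No single brain region stood apart in this way.

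App showed the contrast between brain and periphery at high depth. Its Kunitz-domain exon had an inclusion of 0.0117 to 0.034 in cortex (median 0.0195 of 6 samples), 0.0148 to 0.0577 in hippocampus and 0.0356 to 0.0462 in cerebellum. It was at 0.867 to 1.0 in liver, 0.835 to 0.912 in muscle and 0.527 to 0.657 in testis. Brain samples were thus all low and peripheral samples all high, with testis between them. Sptan1 ran the other way. Its 60-base exon was at 0.92 to 0.957 in cortex, 0.919 to 0.978 in hippocampus and 0.941 to 0.971 in cerebellum. It was at 0.285 to 0.7 in liver, 0.218 to 0.598 in muscle and 0.0233 to 0.0557 in testis, where liver and muscle overlapped and testis lay below both. Kif1b encodes a kinesin motor that carries organelles along microtubules. Its 249-base exon (chr4:149220542-149220790) was at 0.961 or above in every brain sample, at 0.211 to 0.391 in muscle, at 0.0508 to 0.333 in liver and at 0.0 to 0.164 in testis.

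Other exons were extreme in a single peripheral tissue. Immt encodes a protein that shapes mitochondrial cristae. Its 105-base exon (chr6:71852763-71852867) was at 0.00513 to 0.0176 in muscle, with 484.0 junction reads per sample on average, and at 0.907 to 1.0 in testis and 0.884 to 0.965 in liver. The 42-base exon of the membrane scaffold gene Mpp6 (chr6:50176877-50176918) was at 0.929 to 0.989 in muscle and at 0.0 to 0.00653 in testis. The 240-base exon of Tjp1 (chr7:65314093-65314332) encodes the alpha region of the tight-junction protein ZO-1, and it was at 0.871 to 1.0 in liver and at most 0.321 in any sample of the other tissues. The 111-base exon of the kinase gene Mink1 (chr11:70608589-70608699) was likewise at 0.899 to 1.0 in liver and at most 0.365 elsewhere. The 162-base exon of Mark2 (chr19:7281798-7281959), a kinase that detaches proteins from microtubules, was at 0.931 to 1.0 in testis and 0.0 to 0.0976 in muscle. In none of these 8 exons did the difference between the sets of a tissue pass the test described next.

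**Figure D2:**
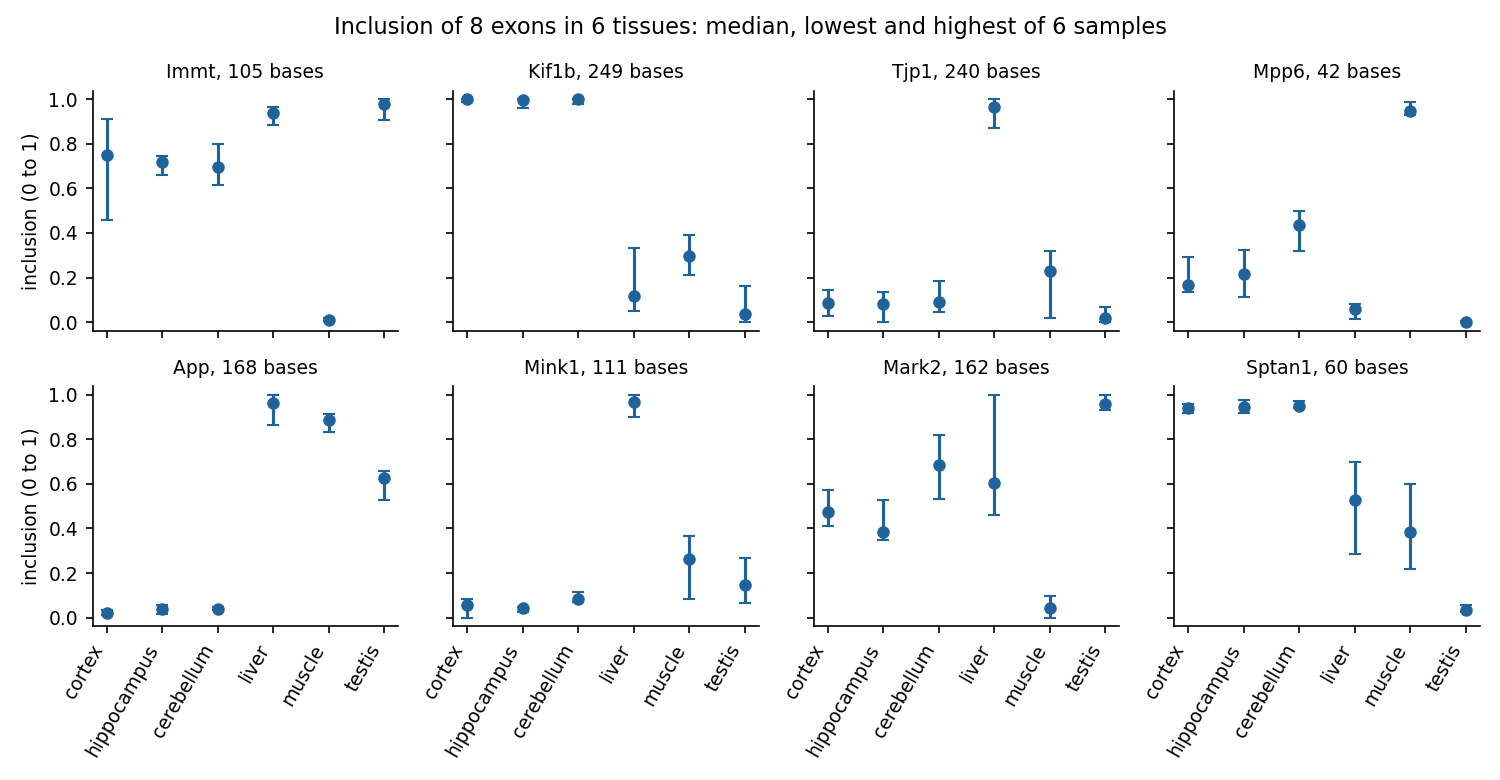
Inclusion (0 to 1, y axis) of 8 exons in the 6 tissues (x axis). Points are medians of 6 samples and bars reach the lowest and highest sample. App is near 0.0195 in cortex and 0.964 in liver, Sptan1 is high in the brain regions and near 0.0351 in testis, and Immt is near 0.00779 in muscle.

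Between the replicate sets of a tissue, inclusion was tested with a quasi-binomial model of the junction reads. The rule for a call was an adjusted p under 0.05 (Benjamini-Hochberg, BH, over all tested events of the table) together with inclusion levels that differed by 0.1 or more. No frame-preserving exon was called in cortex (0% of all 3931 events), hippocampus (0% of 4622), cerebellum (0% of 5942) or liver (0% of 9996). At an unadjusted p under 0.05 there were 70 frame-preserving events in cortex, 71 in hippocampus, 107 in cerebellum and 142 in liver, and edgeR called 0 in each. In muscle, 12 of 4732 frame-preserving events were called, each of a different exon, 6 higher in each set (0.254%, against 0.109% of all events). No frame-shifting exon was called there. In testis, 1 of 6742 events was called (0.00582% of all events). In the N2a siRNA table, 0 of 9047 events were called by the quasi-binomial test (0.00442% of all events), edgeR called 0, and 113 had an unadjusted p under 0.05. In the authors' deposited tables, at a false discovery rate under 0.05 and the same difference, 5 tested frame-preserving events passed in cortex (0.204% of all events), 1 in hippocampus (0.0433%), 0 in cerebellum (0.0168%), 28 in liver (0.69%), 58 in muscle (0.863%), 25 in testis (0.378%) and 61 in the N2a siRNA table (0.575%).

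The muscle calls lay in 4 genes, Neb, Nrap, Rapgef1 and Serpinb6a, all of which are described here with their values known. Nrap encodes a muscle protein with nebulin repeats that anchors actin filaments at the ends of myofibrils. Its 108-base exon (chr19:56354120-56354227) was at 1.0, 1.0 and 1.0 in set 1 and at 0.646, 0.863 and 0.826 in set 2, with 467 to 783 junction reads per replicate. The sets did not overlap (difference 0.22, adjusted p = 1.02e-07, edgeR adjusted p = 8.54e-10). Its 105-base exon (chr19:56355482-56355586) was at 1.0 in all 3 replicates of set 1 and at 0.751, 0.891 and 0.847 in set 2 (adjusted p = 3.79e-08). In the called events, both Nrap exons were fully included in one set and partly skipped in the other. Of the 12 muscle calls, 3 fell on the event with most reads of their exon. The muscle values given here are those of the called events, and events of the same exons with other flanks can differ.

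Neb had 7 called exons, which differed in direction. The 93-base exon at chr2:52151364-52151456 was at 0.99, 0.973 and 0.991 in set 1 and at 0.744, 0.864 and 0.798 in set 2 (adjusted p = 3.84e-07). The exons at chr2:52159477-52159569, chr2:52160656-52160748 and chr2:52161371-52161475 were also higher in set 1, by 0.118 to 0.197. The exons at chr2:52157832-52157924, chr2:52163937-52164050 and chr2:52165167-52165277 were lower in set 1, by 0.111, 0.145 and 0.207. The 111-base exon at chr2:52165167-52165277 was at 0.469, 0.391 and 0.448 in set 1 and 0.772, 0.569 and 0.589 in set 2, with 2116 to 4053 junction reads per replicate. Neb is built from many related repeat exons, and reads could have been assigned between them, so these values are uncertain. edgeR called both Nrap exons and the 4 Neb exons that were higher in set 1 and gave an adjusted p of 0.717 to the other 6 muscle calls.

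Rapgef1 encodes an exchange factor that activates the small GTPase Rap. Its 258-base exon (chr2:29719593-29719850) was at 0.385, 0.382 and 0.364 in set 1 and at 0.709, 0.617 and 0.657 in set 2 (adjusted p = 0.0223). Its 156-base exon (chr2:29710153-29710308) was at 0.37, 0.343 and 0.291 against 0.597, 0.604 and 0.68 (adjusted p = 0.0429). Both were lower in set 1 without overlap, although the first call was lost on leaving out each of 3 of the 6 replicates in turn and the second on leaving out each of the 6. The Serpinb6a exon (chr13:33935573-33935794) has no coding base in the annotation, and it was at 0.315, 0.327 and 0.314 against 0.499, 0.413 and 0.396 (adjusted p = 0.0354), lost without 3 of the 6. The testis call was the 129-base exon of the translation initiation factor gene Eif4g3 (chr4:138057949-138058077), at 0.775, 0.858 and 0.843 in set 1 and 0.711, 0.716 and 0.732 in set 2 (adjusted p = 0.0249). It was lost without 5 of the 6 replicates, and edgeR gave an adjusted p of 0.717. Without set 2 replicate 1 of muscle, 7 exons were called there, and without set 2 replicate 2, 19. When only the event with most reads of each exon was counted, 3 muscle calls remained.

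Markers of other cells differed between the genotypes of muscle in the gene table. Of 4 measured markers of the 5 listed, the leukocyte gene Ptprc was at 7.79 to 8.42 CPM in KO and 3.25 to 5.09 CPM in WT samples. The macrophage gene Cd68 was at 5.09 to 6.36 CPM in KO and 2.51 to 3.57 CPM in WT samples. The ranges of both did not overlap, while those of the endothelial gene Pecam1 (104.0 to 140.0 against 71.9 to 111.0 CPM) and the haemoglobin gene Hbb-bs (130.0 to 298.0 against 161.0 to 757.0 CPM) did. The sum of the 4 was 247.0 to 452.0 CPM in KO and 240.0 to 875.0 CPM in WT samples, and none was at 0. Such differences were not particular to muscle. In cortex, where no exon was called, 1 of the 4 markers was higher and 2 were lower in KO samples without overlap. In hippocampus, also without a call, 2 were lower, and in cerebellum, liver and testis none stood apart. The headers do not tie the replicate sets to a genotype, and the part of such other cells in the muscle set differences was not tested.

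**Figure D3:**
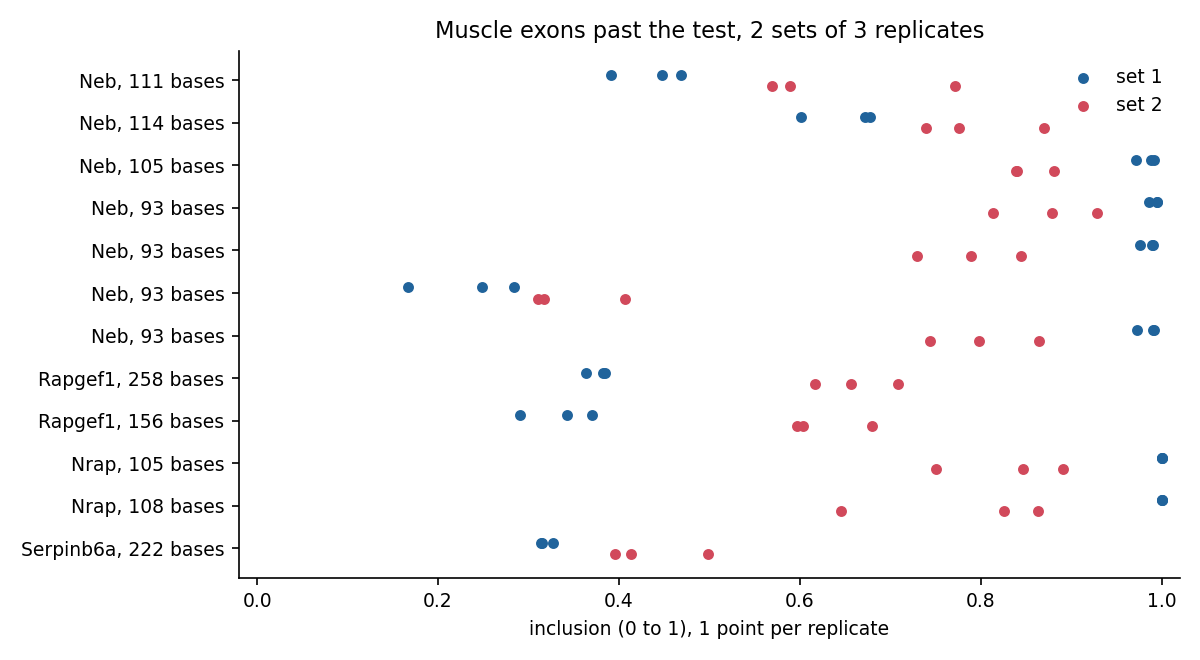
Inclusion (0 to 1, x axis) in the called events of the 12 muscle exons past the test (y axis, ordered by chromosome and start), with 1 point per replicate of set 1 (blue) and set 2 (red). Both Nrap exons are at 1.0 in set 1. Of the 7 Neb exons, 4 are higher and 3 lower in set 1.

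The 4 co-transfection tables held more calls. In the table listed for siNT with pcDNA and siFmr1 with pcDNA, 116 of 17231 frame-preserving events were called, 91 higher in set 1 and 25 higher in set 2 (0.673%, against 0.468% of all events and 0.28% of frame-shifting ones). In the siMbnl1 pcDNA table, 109 of 18564 were called, 45 higher in set 1 and 64 in set 2 (0.587%, against 0.413% and 0.241%). In the nuclear MBNL1 table, 73 of 19863 were called, 24 and 49 (0.368%, against 0.284% and 0.203%). In the cytosolic MBNL1 table, 128 of 21362 were called, 43 and 85 (0.599%, against 0.526% and 0.404%). The authors' deposited tables gave 333, 389, 217 and 409 at a false discovery rate under 0.05 (1.68%, 1.82%, 1.03% and 1.87% of all events).

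These calls depended on the test and on single libraries. The edgeR test called 0, 0, 4 and 6 frame-preserving events in the same order, and the calls it shared in the co-transfection tables among the exons named here were those of Mbnl1 and Dnajc5. edgeR gave an unadjusted p under 0.05 to 476 and 594 events of the first 2 tables. Without set 1 replicate 3, 74 events were called in the siFmr1 pcDNA table, and without set 1 replicate 2, 69 in the siMbnl1 pcDNA table. Leaving out each of the 3 nuclear MBNL1 replicates in turn left 31 to 32 calls in the nuclear table, and leaving out set 2 replicate 3 left 41. Leaving out each of the 3 cytosolic MBNL1 replicates in turn left 32 to 45 calls in the cytosolic table.

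Reads of the tables showed that the 4 tables hold 5 distinct sets. Set A is set 1 of the siFmr1 pcDNA table and set 2 of the nuclear MBNL1 table, with 100% identical reads over 44006 shared events. Set B is set 2 of the siFmr1 pcDNA, siMbnl1 pcDNA and cytosolic MBNL1 tables, likewise with 100% identical reads. Which of A and B is siNT with pcDNA and which is siFmr1 with pcDNA is not given in the headers. The other sets each occur in 1 table and are called here the siMbnl1, nuclear MBNL1 and cytosolic MBNL1 sets after that table. Calls in tables that share a set are therefore not independent, and values are given set by set.

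In all, 283 frame-preserving exons were called in a co-transfection table. They were shorter and less complete in inclusion than the 20095 tested exons. Their median length was 93.0 bases against 117.0, and 73.1% had an intermediate inclusion of 0.1 to 0.9 against 6.55%. Their median inclusion was 0.74 against 0.995, and 87.3% were wholly coding against 94.6%. A call needs a difference of 0.1 or more, which an exon near 0 or 1 seldom reaches, so the contrast in inclusion follows from the rule and is a description only.

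Across all 11 tables, 296 exons of 260 genes were called, 200 in 1 table, 65 in 2, 29 in 3 and 2 in 4. The 31 exons called in 3 or 4 tables were found in the co-transfection tables. Of these 31, 25 were called in exactly the 3 tables that share set B and 2 more in all 4 tables, and the mean of set B was the lowest of the 5 sets in 23 and the highest in 4. They lay in Akap11, Arfip1, Arhgap39, Atp13a3, Cttn, Dst, Dync1i2, Epb41l1, Epb41l3, Fgfr1op2, Frmd4a, Hnrnpa2b1, Hnrnph2, Kcnab2, Kif1b, Map4k4, Mapt, Mbnl1, Micos10, Nf2, Plod2, Ppfia1, Prune2, Reep6, Sec24c, Sptan1, St7, Tpd52, Uap1 (2 exons of 48 and 51 bases with a shared 3′ end) and Vrk1.

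St7 is a gene at a tumour suppressor locus. Among calls with at least 50 reads and no overlap, it had the largest difference in the siFmr1 pcDNA and siMbnl1 pcDNA tables. Its 69-base exon (chr6:17850357-17850425) was at 0.264, 0.556 and 0.34 in set B. It was at 0.749, 0.751 and 0.743 in set A, 0.791, 0.878 and 0.799 in the siMbnl1 set, 0.813, 0.765 and 0.746 in the nuclear MBNL1 set and 0.716, 0.825 and 0.719 in the cytosolic MBNL1 set. Every set B replicate lay below every other replicate (siFmr1 pcDNA table, difference 0.36, adjusted p = 9.12e-10; edgeR adjusted p = 0.704). The 36-base exon of Epb41l3 was at 0.244, 0.185 and 0.223 in set B, 0.502, 0.582 and 0.53 in set A and 0.479 or above in the rest (siMbnl1 pcDNA table, difference 0.40, adjusted p = 1.07e-22; edgeR adjusted p = 0.717). The related Epb41l1 exon was at 0.506, 0.628 and 0.629 in set B and at 0.702 or above in each replicate of the other 4 sets (siFmr1 pcDNA table, adjusted p = 3.78e-12; edgeR adjusted p = 0.704). Both 4.1 family exons were thus lowest in set B without overlap. In the tissues, the Epb41l3 exon was at 0.938 or above in all brain samples and at most 0.0106 in testis.

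Set B was also the lowest set in exons of a spectrin, a motor and a coat gene. Sptan1 was at 0.546, 0.675 and 0.612 in set B, 0.807, 0.822 and 0.797 in set A and 0.901, 0.876 and 0.917 in the nuclear MBNL1 set. Kif1b was at 0.218, 0.182 and 0.166 in set B and at 0.305 or above in every replicate of the other sets. The COPII coat gene Sec24c had a 69-base exon (chr14:20685212-20685280) at 0.0927, 0.127 and 0.168 in set B and 0.386, 0.446 and 0.445 in set A. In each of these 3 exons, set B lay below the rest without overlap. The 120-base exon of Hnrnpa2b1 (chr6:51464428-51464547), which encodes part of the glycine-rich domain of this RNA-binding protein, had the deepest coverage of the group. It was at 0.521, 0.555 and 0.533 in set B, with 2940.0 reads per replicate, and at 0.65 or above in every other replicate, with at least 7430.0 reads per replicate on average (siFmr1 pcDNA table, adjusted p = 2.64e-31; edgeR adjusted p = 0.704).

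Some exons were higher in set B. The 114-base exon of Fgfr1op2 (chr6:146592634-146592747) was at 0.462, 0.462 and 0.438 in set B and at most 0.334 in any other replicate. The 111-base exon of Dst, a plakin that links cytoskeletal filaments (chr1:34303421-34303531), was at 0.832, 0.822 and 0.806 in set B and 0.573, 0.544 and 0.554 in set A (siFmr1 pcDNA table, adjusted p = 6.27e-10; edgeR adjusted p = 0.704). The 93-base exon of Arhgap39 (chr15:76730364-76730456), a GTPase-activating protein, was called higher in set B in 3 tables, and its calls were lost without 2 to 4 of the 6 replicates. Set B was the upper set in all 3 of these exons.

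The 2 exons called in all 4 tables lay in Dync1i2, an intermediate chain of the dynein motor, and Cttn. The 60-base exon of Dync1i2 (chr2:71233649-71233708) was at 0.46, 0.438 and 0.484 in set A, 0.366, 0.231 and 0.264 in set B, 0.452, 0.407 and 0.465 in the siMbnl1 set, 0.334, 0.292 and 0.286 in the nuclear MBNL1 set and 0.419, 0.349 and 0.436 in the cytosolic MBNL1 set. Cttn was at 0.812, 0.795 and 0.736 in set A and 0.502, 0.692 and 0.613 in set B. Its nuclear MBNL1 replicates were at 0.663, 0.662 and 0.669. Sets B and nuclear MBNL1 were low and set A high in both exons. In the cytosolic MBNL1 table, the Dync1i2 and Cttn calls were each lost without 4 of the 6 replicates.

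**Figure D4:**
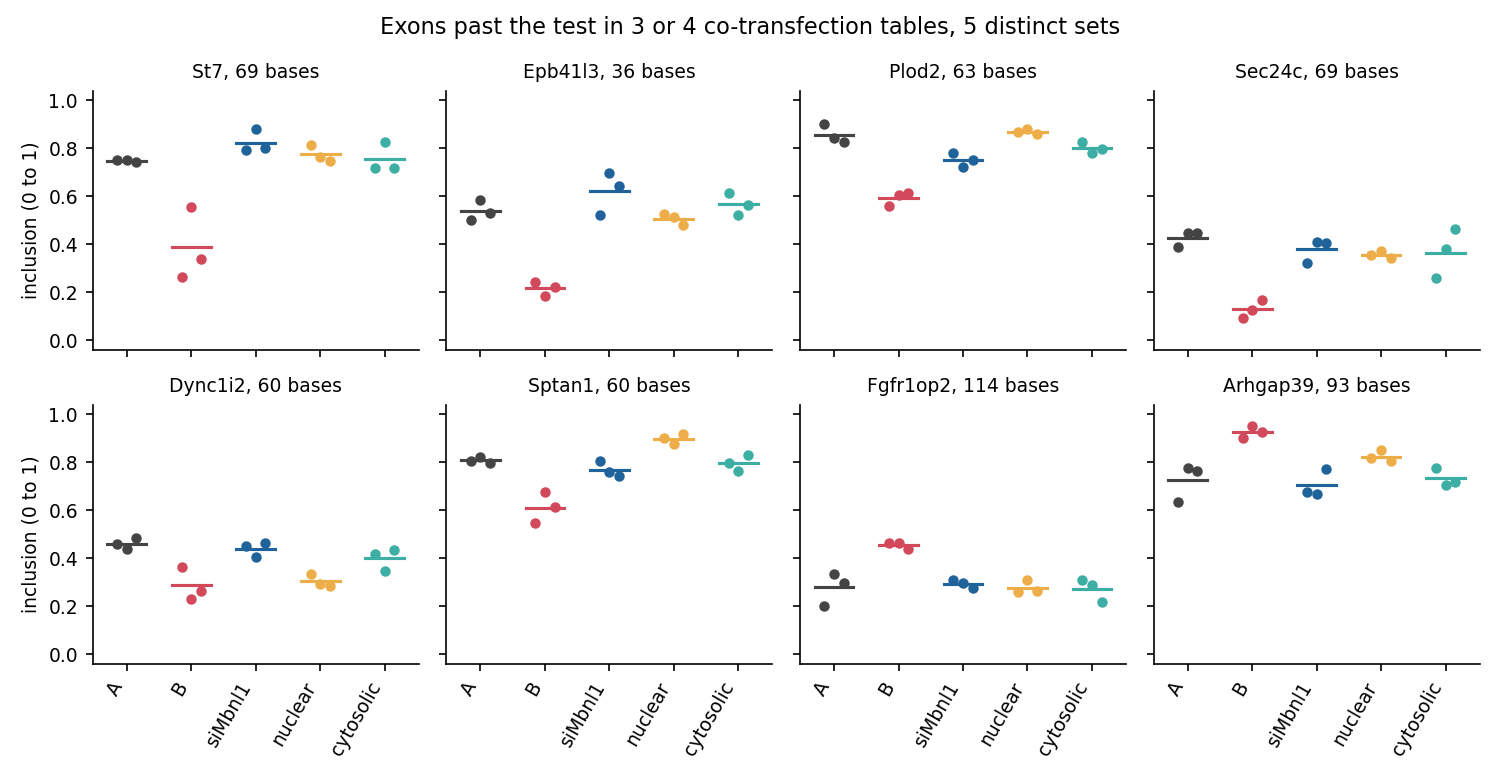
Inclusion (0 to 1, y axis) of 8 exons called in 3 or 4 co-transfection tables, in the 5 distinct sets (x axis), with 1 point per replicate and a line at the mean. Set B (red) is lowest in St7, Epb41l3, Plod2, Sec24c and Sptan1 and highest in Fgfr1op2 and Arhgap39.

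The position of each set was counted over the 9207 exons tested in all 4 tables, as the number in which its replicates did not overlap those of any other set and its mean lay at least 0.1 from the nearest other mean. These counts are a description with no test. Set B stood apart in 38 exons (0.413%), 10 higher and 28 lower, and 20 of these are among the 31 exons above, which were mostly called in tables that share set B. Set A stood apart in 8, the siMbnl1 set in 25, the nuclear MBNL1 set in 40 and the cytosolic MBNL1 set in 18. Among pairs of sets, A and nuclear MBNL1 stood apart together in 39 exons, 37 of them higher. The siMbnl1 and cytosolic MBNL1 sets, whose samples received siMbnl1 per the labels, stood apart together in 29 exons, 4 higher and 25 lower. Each of the other 8 pairs did so in 0 to 5 exons.

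Mapt and Map2 were among the 25 exons lower in the siMbnl1 and cytosolic MBNL1 sets. The Mapt 93-base exon was at 0.732, 0.781 and 0.696 in set A, 0.523, 0.672 and 0.602 in set B and 0.712, 0.703 and 0.77 in the nuclear MBNL1 set. It was at 0.189, 0.285 and 0.302 in the siMbnl1 set and 0.452, 0.378 and 0.398 in the cytosolic MBNL1 set, and these sets did not overlap the others. The siMbnl1 set differed from set B by -0.34 (adjusted p = 1.72e-14; edgeR adjusted p = 0.717) and the cytosolic MBNL1 set by -0.19 (adjusted p = 0.00233; edgeR adjusted p = 0.663). The second of these calls was lost on leaving out each of the 3 cytosolic MBNL1 replicates in turn. The difference between sets A and B was 0.14 (adjusted p = 0.0412) and was lost without 4 of the 6 replicates. In brain the same exon was at 0.965 to 1.0.

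Map2 moved alongside Mapt at lower depth, with at most 75.0 reads per replicate on average in any set. Its 93-base exon was at 0.864, 0.703 and 0.542 in set A, 0.625, 0.694 and 0.623 in set B and 0.667, 0.614 and 0.649 in the nuclear MBNL1 set. It was at 0.2, 0.381 and 0.188 in the siMbnl1 set and 0.216, 0.284 and 0.264 in the cytosolic MBNL1 set. The differences from set B were -0.39 (adjusted p = 0.000644; edgeR adjusted p = 0.717) and -0.39 (adjusted p = 0.00436; edgeR adjusted p = 0.658), and the call in the cytosolic table was again lost on leaving out each of those replicates. The call in the siMbnl1 pcDNA table was lost without set 1 replicate 3. Of the other Mapt exons, an 87-base exon that encodes an N-terminal insert (chr11:104287123-104287209) had means of 0.434, 0.43 and 0.485 in sets A, B and nuclear MBNL1 and 0.204 and 0.226 in the siMbnl1 and cytosolic MBNL1 sets. A 66-base Mapt exon (chr11:104294859-104294924) was higher instead, with means of 0.707 and 0.74 in those sets against 0.422 to 0.476 in the others.

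Scarb1 encodes a receptor for high-density lipoprotein, and skipping of its 129-base exon (chr5:125281105-125281233) is known to change the cytoplasmic tail. It was at 0.382, 0.411 and 0.404 in the siMbnl1 set, 0.55, 0.539 and 0.511 in the cytosolic MBNL1 set and 0.668, 0.62 and 0.593 in the nuclear MBNL1 set. Sets A and B were at 0.681 to 0.763. The siMbnl1 set differed from set B with an adjusted p of 5.89e-31. Arfip1, whose product binds Arf GTPases, had a 96-base exon (chr3:84529170-84529265) with means of 0.457 in set A, 0.269 in set B, 0.119 in the siMbnl1 set, 0.583 in the nuclear MBNL1 set and 0.285 in the cytosolic MBNL1 set. The siMbnl1 set was the lowest of the 5 in both exons. The Arfip1 call in the nuclear MBNL1 table was lost on leaving out each of its 6 replicates.

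The Mbnl1 exons had the largest set differences of all. The 54-base exon was at 0.982, 0.983 and 0.989 in the nuclear MBNL1 set and at 0.003, 0.00331 and 0.00461 in the cytosolic MBNL1 set. It was at 0.275, 0.39 and 0.384 in set A, 0.643, 0.634 and 0.456 in set B and 0.725, 0.684 and 0.8 in the siMbnl1 set. Mean reads were 17700.0 and 10300.0 per replicate in the nuclear and cytosolic MBNL1 sets and 107.0 to 348.0 in the others, so that in the plasmid sets reads from the plasmid and from the gene cannot be told apart. The 36-base exon was at 0.0209, 0.0193 and 0.0179 in the nuclear MBNL1 set and at 1.0 in each replicate of the cytosolic MBNL1 set. It was at 0.885 or above in sets A and B and at 0.767 to 0.896 in the siMbnl1 set. Sets A and B carried no MBNL1 plasmid per the labels, and the 54-base exon differed between them by -0.23 (adjusted p = 9.45e-07; edgeR adjusted p = 0.704). Normalized Mbnl1 counts in the gene table were 1410.0 to 1540.0 with siMbnl1 and pcDNA, 11000.0 to 13300.0 with siFmr1 and nuclear MBNL1 and 16800.0 to 23300.0 with siMbnl1 and cytosolic MBNL1.

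**Figure D5:**
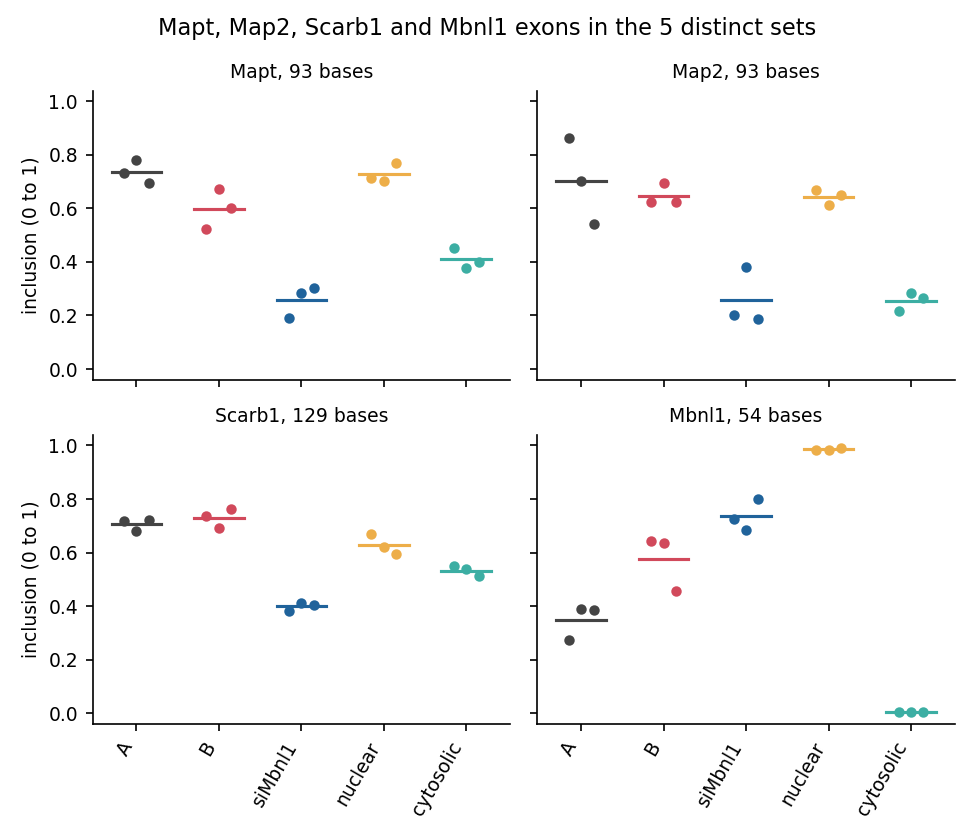
Inclusion (0 to 1, y axis) of the Mapt, Map2, Scarb1 and Mbnl1 exons in the 5 distinct sets (x axis), with 1 point per replicate and a line at the mean. Mapt and Map2 are lower in the siMbnl1 and cytosolic MBNL1 sets (means of 0.259 and 0.409 for Mapt), and the Mbnl1 exon is at 0.985 in the nuclear and 0.00364 in the cytosolic MBNL1 set.

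Among the exons named here, a 75-base Dnajc5 exon (chr2:181548926-181549000) was the one besides those of Mbnl1 that edgeR also called in the co-transfection tables. It is partly coding. Dnajc5 encodes a chaperone of synaptic vesicles. For its event between the flanking exon ends at 181547553 and 181549273, set A was at 1.0, 1.0 and 1.0 and set B also at 1.0, 1.0 and 1.0. The nuclear MBNL1 set was at 0.517, 0.524 and 0.571 and the cytosolic MBNL1 set at 0.511, 0.332 and 0.606, with 56 to 178 reads per replicate (edgeR adjusted p = 0.00132 and 0.0163). An event of the same exon with other flanks had means of 0.306 in set A, 0.246 in set B, 0.284 in the nuclear and 0.239 in the cytosolic MBNL1 set. The difference of the first event was therefore tied to 1 choice of flanking exons.

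Of all frame-preserving exons tested, counting each exon once, 0.804% were called in the siFmr1 pcDNA table, 0.742% in the siMbnl1 pcDNA table, 0.475% in the nuclear and 0.797% in the cytosolic MBNL1 table, and 0.282% in muscle. By gene group, cytoskeleton and junction adaptor genes held 9 called exons of 124 tested in the siFmr1 pcDNA table, 12 of 118 in the siMbnl1 pcDNA table, 4 of 136 in the nuclear and 11 of 128 in the cytosolic MBNL1 table, in both directions. Besides the genes above, they included Enah, Map4, Mprip and Myo5a. Endocytosis and vesicle trafficking genes held 4 of 110, 5 of 115, 6 of 123 and 3 of 139, among them Clta, Numb, Snap91 and Sh3glb1. Kinases and phosphatases held 4 of 84, 6 of 91, 2 of 85 and 4 of 96, and RNA-binding and splicing genes 4 of 84, 2 of 82, 3 of 83 and 4 of 87. The 3 of the nuclear MBNL1 table lay in Mbnl1 and Mbnl2, and Mbnl1 was also among the cytosolic calls. In these plasmid sets, Mbnl1 reads from the plasmid and from the gene cannot be told apart. Transcription and chromatin regulators held 1 of 79 in the siMbnl1 pcDNA table (Mta1), 1 of 77 in the nuclear MBNL1 table (Nfix) and 0 of 83 and 0 of 85 in the others. No exon of the ion channel and synaptic receptor genes was among the calls, with 47 to 50 of them tested in each co-transfection table, where shares of 0.475% to 0.804% amount to less than 1 exon. Sarcomere and excitation-contraction genes held 9 of 143 in muscle, the Neb and Nrap exons, and 3 of 21 and 2 of 23 in the siFmr1 and siMbnl1 pcDNA tables, all of Bin1. In the co-transfection tables, 13.6% to 42.9% of the tested events of these groups had an inclusion of 0.1 to 0.9. The share was 7.84% to 8.9% of all frame-preserving events there, and the part of this in the counts was not tested. The lists were chosen with earlier results of these data known, so the counts are a description only.

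Across tissues, 12 exons of the cytoskeleton group were measured in all 6, and 11 had a range of 0.2 or more, with a median range of 0.764. All 10 exons of the endocytosis group had a range of 0.2 or more, with a median of 0.756, as did 7 of 8 kinase exons, with a median of 0.73. The transcription and chromatin group had 5 of 6, with a median of 0.462, and the RNA-binding and splicing group 4 of 9, with a median of 0.134. The single exon of the sarcomere group had a range of 0.717, and no ion channel exon was measured in all 6. Over all 348 exons, 52.9% had a range of 0.2 or more and the median was 0.231. Because the lists were chosen with earlier results of these data known, the group values are a description only.

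The N2a siRNA table, from a separate experiment, tested 30 of the 31 exons called in 3 or 4 tables. None passed, and the smallest unadjusted p was that of Sec24c (0.00141, adjusted p = 0.807). Its mean was 0.485 in set 1, with 3 replicates, and 0.268 in set 2, with 2. These are the numbers of siFmr1 and siNT samples. Of the called events tested there, 5 of 108 from the siFmr1 pcDNA table, 7 of 101 from the siMbnl1 pcDNA table, 3 of 60 from the nuclear and 5 of 107 from the cytosolic MBNL1 table had an unadjusted p under 0.05 (4.63%, 6.93%, 5.0% and 4.67%). The share was 1.25% of all 9047 frame-preserving events and 0.995% of all 22614 events tested there. Called exons were more often of intermediate inclusion than the rest, and the part of that in these shares was not tested. Libraries of that experiment stood apart: deviations from the mean of all 5 libraries in set 1 replicate 1 went with those in set 2 replicate 1 (Pearson's r = 0.191 across 1059 events, which are not independent replicates). The other 9 pairs were at -0.031 to -0.499, and such deviations correlate at -0.25 on average where no libraries are related. With a term for that library split, 0 frame-preserving exons were called. Fmr1 itself ranged from 2.1 to 15.8 CPM in the 3 siFmr1 samples and was at 20 and 81.2 CPM in the 2 siNT samples.

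The 4 tetramers, counted on the transcribed strand with overlaps allowed, occurred in 75.0% of the tested and 59.3% of the called exons of the siFmr1 pcDNA table. In the other co-transfection tables the tested and called shares were 75.0% and 76.2% in the siMbnl1 pcDNA, 76.8% and 76.1% in the nuclear and 76.1% and 74.4% in the cytosolic MBNL1 table. The called exons of the siFmr1 pcDNA table were shorter than those tested, with a median of 78.0 bases against 117.0. Per 100 bases, the tetramers numbered 1.52 in tested and 1.4 in called exons of that table, and 1.52 and 1.77 in the siMbnl1 pcDNA table. They numbered 1.62 and 2.3 in the nuclear MBNL1 table and 1.59 and 2.12 in the cytosolic MBNL1 table. Called exons also had more G and C, at 53.2% to 54.3% against 50.6% to 51.0% of bases in the co-transfection tables, and the part of base composition in these counts was not tested. The windows held exon bases only, and flanking introns were not used here. The Map2 exon held 1 of the tetramers.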

How the data were processed

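The labels' protocols give a poly(A) NEXTflex directional kit for brain, a service company for peripheral tissues and the first N2a experiment, and a NEBNext Ultra II directional kit for the co-transfection experiment. The submitters' processing notes name CASAVA, FastQC 0.11.8, Trimmomatic 0.39, Bowtie2 2.3.5, STAR 2.6.1, RSEM 1.3.1 and DESeq2 1.16.1 and the builds GRCm38 and mm10, with no role. The rMATS version is not given in the sources used here. The skipped exon tables were deposited as rMATS output that counts reads on junctions only, and per the file headers they hold other values besides counts: comma-separated junction read counts per replicate, form lengths and an inclusion difference. The deposited false discovery rates are p-values of the authors. The gene tables hold integer read counts per the file headers, and the authors deposited the co-transfection gene table as a signal, counts normalized in a way that the table does not state. In the muscle gene table, 2 columns of other per-sample values were not used.

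Inclusion was the length-corrected inclusion share of junction reads, and the recomputed set difference matched the deposited one within 0.002 in 100% of events. Skipping forms had a length of 34 in brain tables and 149 in the others. Each table was fitted alone in R 4.3.3 as a quasi-binomial model of each event. Dispersions were moderated with limma 3.58.1 towards 1 value per table, with 1 as the floor, and followed by an F test and BH adjustment over all tested events. Tests on simulated data preceded the fits. A trend of the dispersion with depth was also run and both counts were seen before the untrended design was kept, as it had been written. The prior dispersion came from events with at least 10 reads of each form, a choice made after the files were read. edgeR 4.0.16 tested the inclusion reads against the skipping reads in a quasi-likelihood model as the alternative. Exons were matched to GENCODE M21 (at least 99.8% of flanks in each table). The results of 1 gene list and the sequence of 1 exon are not reported here. A nucleotide sequence was found for 24479 of 24543 exons.

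Exons were named where they were among the 2 largest calls per table with at least 50 reads and no overlap, the 8 largest tissue ranges, called in 3 or more tables, or among up to 2 calls per gene list (8 lists). All muscle calls and the Mbnl1, Dnajc5, Mapt, Map2 and Scarb1 exons were named after their values were seen, as were the sets that stand apart, the N2a library term and the requirement of the same event in all 6 tissues. The exons and lists were chosen with earlier results of these data known. Other alternatives were the read minimum (10 or 50), 1 event per exon, no form lengths, the deposited calls and each replicate left out.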

Additional observations from a re-analysis of the deposited data

How the results depend on the processing

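No paired analysis was possible from the headers, because replicate columns carry no sample numbers and sets are not tied to genotypes or treatments. Read totals per replicate could help to place the tissue replicates and were not used for this, so pairing was not tested. Leaving out 1 replicate gave 7 to 19 calls in muscle, 0 to 3 in testis, 0 to 2 in the N2a siRNA table, 74 to 112 in the siFmr1 pcDNA, 69 to 83 in the siMbnl1 pcDNA, 31 to 60 in the nuclear MBNL1 and 32 to 144 in the cytosolic MBNL1 table. The edgeR test called 6 in muscle, 0 in testis, 0 in the siFmr1 and siMbnl1 pcDNA tables, 4 in the nuclear and 6 in the cytosolic MBNL1 table, and of 128 named calls 12 held and 116 were lost, none reversed. The authors' deposited calls numbered 5 in cortex, 1 in hippocampus, 28 in liver, 58 in muscle, 25 in testis, 61 in the N2a siRNA table and 333, 389, 217 and 409 in the co-transfection tables. Counting only the event with most reads of each exon left 3 calls in muscle. With a dispersion trend, 0 were called in testis and 105 of the 128 named calls held. The causes of these shifts were not tested.

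With a minimum of 50 reads, the share of exons from 0.1 to 0.9 was 19.1% in cortex, 19.6% in hippocampus, 17.9% in cerebellum, 6.76% in liver, 11.4% in muscle, 9.9% in testis, 9.02% in the N2a siRNA table and 7.3%, 7.52%, 6.77% and 6.67% in the co-transfection tables, and 43 of 113 exons (38.1%) had a tissue range of 0.2 or more. Without form lengths it was 12% in liver, 16.5% in muscle, 12.6% in testis and 9.2% in the siFmr1 pcDNA table. With 1 event per exon it was 23.3% in cortex, 20.8% in cerebellum and 14.8% in muscle. Brain tables had the fewest junction reads, which limits how small a difference could be called there.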
